A study of Mus musculus with 6 samples.

Results

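The genes described here are 39 markers of T cells and natural killer (NK) cells among the 44679 genes measured in B16F10 tumours, grown in mice from a pigmented mouse melanoma line. They were chosen by name, and every one was found once in the deposited tables through its symbol in the GRCm38 annotation. They cover the T cell receptor and its CD3 chains, the coreceptors, surface and signalling proteins, cytokine receptors, regulatory and checkpoint receptors, cytotoxic granule proteins, NK receptors and the transcription factors Tbx21 and Eomes. Total RNA was sequenced from 3 tumours of untreated mice and 3 tumours of mice treated with the histone deacetylase inhibitor vorinostat, and all 6 tumours were labelled skin tumours of the B16F10 line. Dose, schedule, tumour age and the strain, sex and age of the mice were not given in the sources used here. Pelleted tumour cells were the source of the RNA, so the values describe all cells left in those pellets. How much of each value came from host cells was not tested. The labels do not say that each tumour came from its own mouse, and p-values measure the spread between these samples, which may in part be technical.

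T cells recognise peptides on MHC molecules through the T cell receptor, whose alpha and beta chains signal through the CD3 chains, the kinases Lck and Zap70 and the adaptor Lat. CD8 T cells and NK cells kill target cells with perforin and granzymes, while regulatory T cells, which depend on the transcription factor Foxp3, restrain them. B16F10 tumours are known for sparse T cell infiltration and for poor response to blockade of checkpoint receptors alone. In a bulk sample, fewer cells of a type and less RNA per cell cannot be told apart.

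These genes were faint in the tumours. Their levels were expressed as CPM, which is reads in every 1000000 after TMM scaling of the libraries. Summed over the 39 genes they stood at 56.4, 28.0 and 67.1 CPM in untreated tumours 1, 2 and 3 and at 46.5, 37.6 and 55.7 CPM in vorinostat tumours 1, 2 and 3. Of the melanocyte genes, 5 alone (Mlana, Pmel, Dct, Tyrp1 and Tyr) summed to between 5440 and 7630 CPM. The reads behind these values were few: from 14 for Ncr1 to 504 for Tnfrsf9 over all 6 libraries, with a median of 116 and never more than 123 reads of 1 gene in 1 tumour. A count of 3 reads, taken as the detection limit, corresponds to 0.114, 0.167 and 0.285 CPM in untreated tumours 1, 2 and 3 and to 0.119, 0.138 and 0.269 CPM in vorinostat tumours 1, 2 and 3. These limits, and the intervals given below, cover counting error only.

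Libraries differed in ways that touch faint genes. Assigned reads, in units of 1000000, numbered between 11.3 and 28.9, and after TMM scaling untreated tumour 3 and vorinostat tumour 3 carried the smallest effective libraries, at 10.5 and 11.1 on the same scale. Mitochondrial ribosomal RNA took 55.9% of the reads of untreated tumour 3. Genes of olfactory, vomeronasal, trace amine and bitter taste receptors (chemoreceptors, 1384 genes), little transcribed outside sensory tissue, served as a measure of stray reads and gave a background of 0.0221 to 0.0434 CPM per kilobase in the untreated tumours, of 0.0361 and 0.0351 in vorinostat tumours 1 and 2 and of 0.13 in vorinostat tumour 3. At that density the background amounted to between 2.82% and 6.64% of the reads of the 39 genes in the first 5 of these libraries and to 16.3% in vorinostat tumour 3. Its part in the results below was not tested beyond subtracting it as an alternative. The pan-leukocyte gene Ptprc (CD45) stood at 18.2, 6.69 and 28.3 CPM in untreated and at 12.2, 7.95 and 10.5 CPM in vorinostat tumours 1, 2 and 3. The genes followed the same tumours: 20 of the 39 were highest in untreated tumour 3 and 22 were lowest in untreated tumour 2.

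**Figure D1:**
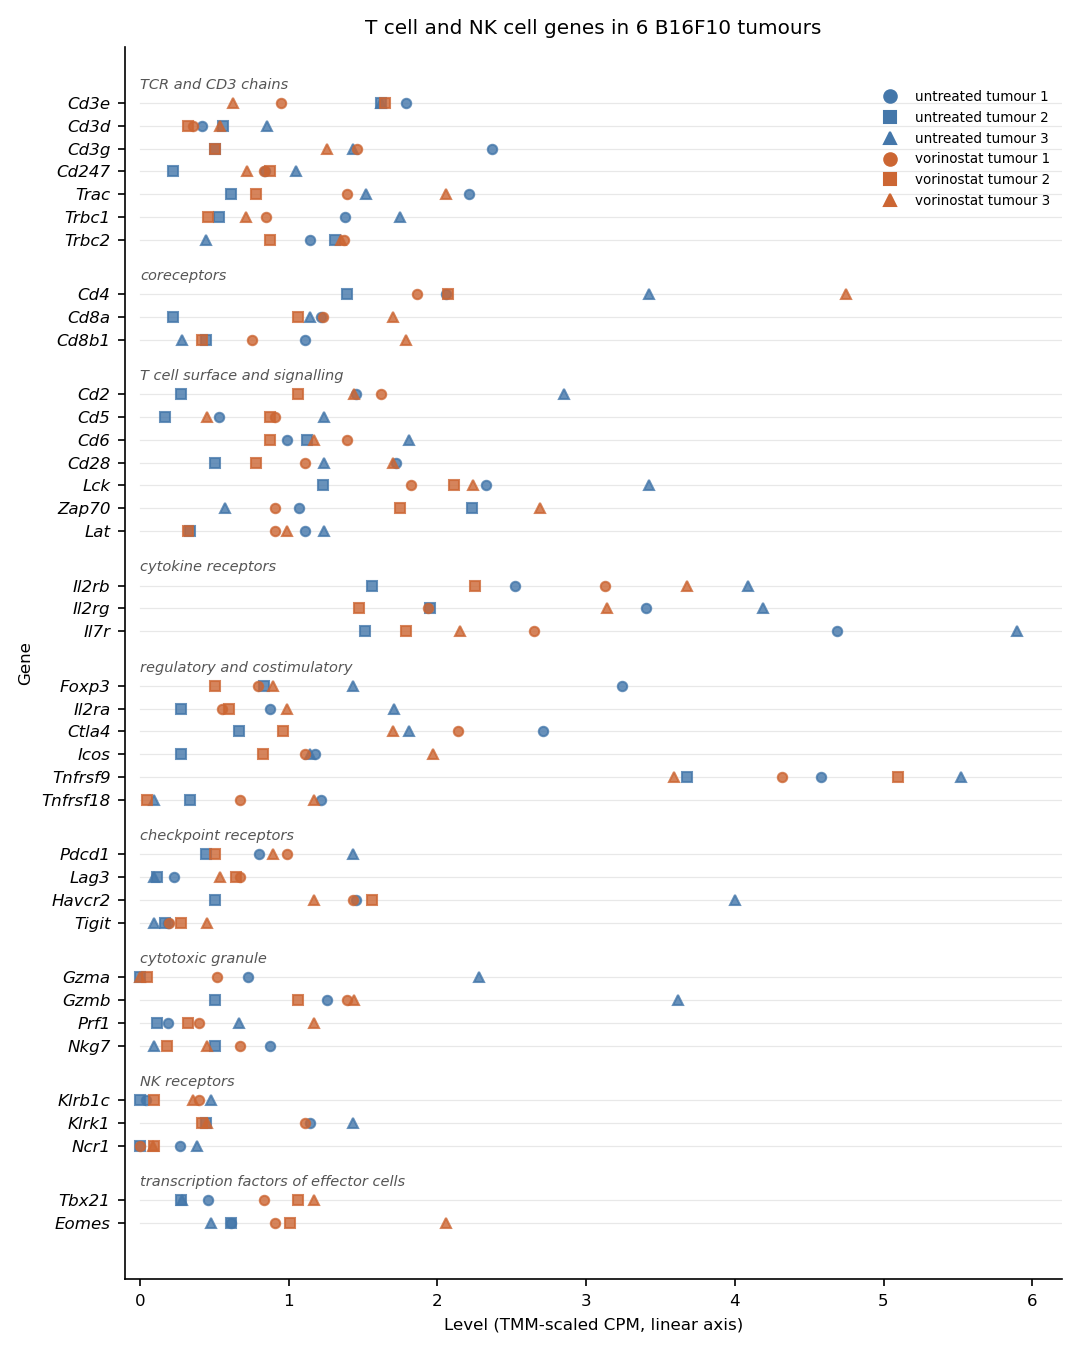
Level of each of the 39 genes (rows, grouped by role) in CPM on a linear axis, with 1 point for each tumour, blue for untreated and orange for vorinostat. All points lie below 6 CPM, and the colours overlap in every row but those of Lag3, Tigit, Tbx21 and Eomes.

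Whether vorinostat-treated tumours differed from untreated ones in these genes was asked of each gene in a fit over the whole transcriptome. None of the genes passed: 33 of the 39 had enough reads to be tested, 13 with a fold change above 0 and 20 below (below 0 for 45.9% of all genes), and edgeR's quasi-likelihood test called 0 of them. It also called 0.0% of all 14776 genes tested. At an unadjusted p under 0.05 there were 0 of the 33, against 6.27% of all genes, 3.36% higher and 2.92% lower. DESeq2 called 0 of the 33 and 0.0744% of all genes. On log2(TPM + 1) limma called 0 and 0.264%, and on log2(TPM + 0.1) it called 0 and 0.352%. Without a filter edgeR called 0 of the 39 and 0.471% of all genes, without untreated tumour 2 it called 0 of 35 and 0.736%, and without untreated tumour 3 it called 0 of those tested and 0.00656%. The median log2 fold change was -0.12 over the 33 genes and 0.03 over all genes tested. The split by direction depended on single tumours and on the scale. Above and below 0 there were 18 and 14 genes without untreated tumour 1, 20 and 13 when untreated tumour 3 was left out, and 19 and 14 when vorinostat tumour 2 was. More genes still lay below 0 without untreated tumour 2 (10 and 25), vorinostat tumour 1 (11 and 20) or vorinostat tumour 3 (11 and 24). Leaving out 1 tumour turned the sign of 21 of the 33 genes at least once, and Cd3e, Trbc1, Cd8a, Zap70, Il2rg, Il7r, Foxp3, Icos, Gzma, Klrk1, Tbx21 and Eomes are the 12 that kept it wherever they were tested. For the scale, on log2(TPM + 1) 24 of the 33 lay above 0 and 9 below, with a median of 0.18 beside 0.26 for all genes. In the untreated tumours the coefficient of variation of a gene had a median of 56.3%, where counting error alone gives 25.5%. In the vorinostat tumours it was 37.0%, where counting gives 23.4%.

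**Figure D2:**
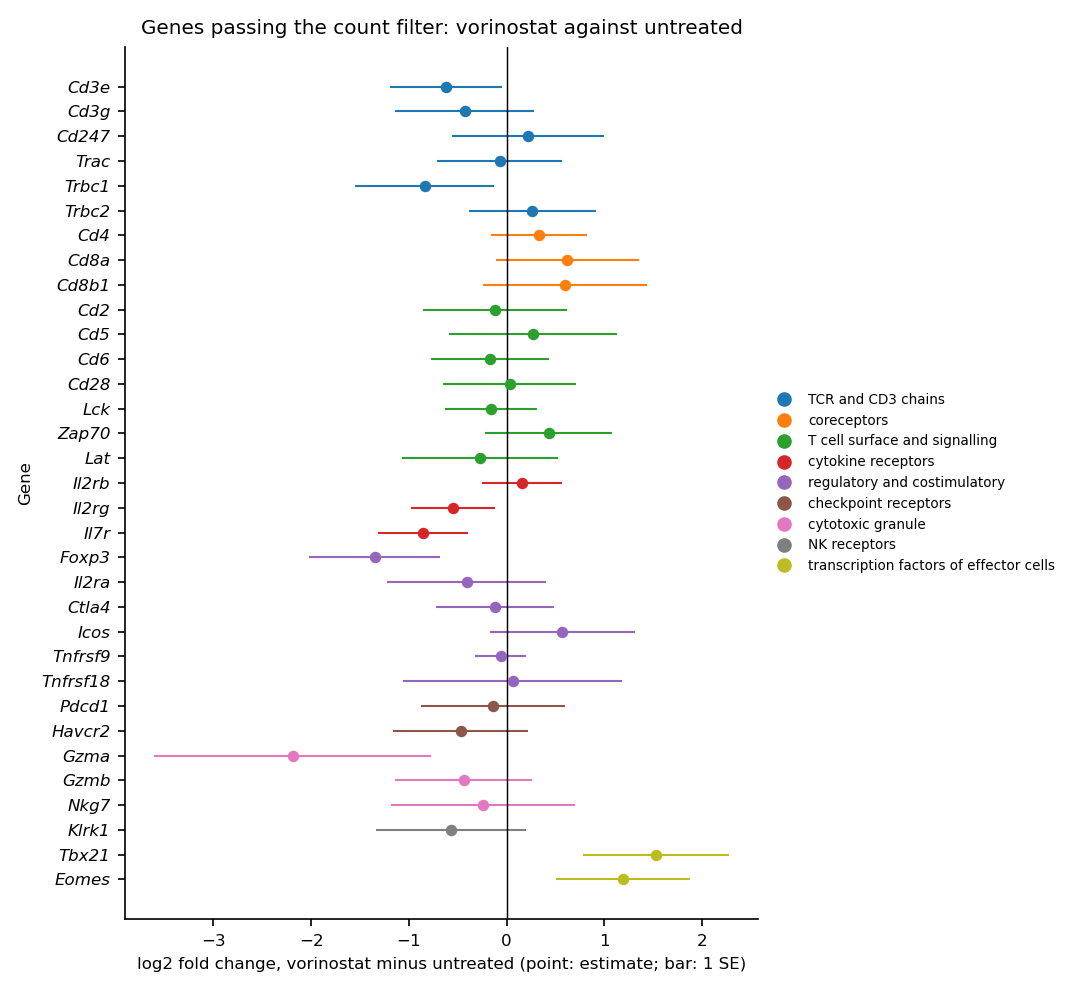
Log2 fold change of the 33 tested genes, vorinostat minus untreated, with bars of 1 SE from edgeR and colours for roles. Gzma (-2.19) and Foxp3 (-1.35) lie lowest and Tbx21 (1.53) and Eomes (1.19) highest, and none of the genes passed the test.

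The chains of the T cell receptor complex were present in every tumour. Trac, the constant region of the alpha chain, had 58, 11 and 16 reads in untreated and 35, 17 and 23 reads in vorinostat tumours 1, 2 and 3. These correspond to 2.21, 0.613 and 1.52 CPM against 1.39, 0.781 and 2.06 CPM, and the groups overlapped (log2 fold change -0.07 ± 0.64 SE, adjusted p 0.989 by edgeR). Background of the chemoreceptor kind made up at most 4.2% of Trac reads in any tumour, so these reads stood well above it.

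The beta chain has 2 constant region genes, Trbc1 (chromosome 6 from 41538218 to 41539881, GRCm38, plus strand) and Trbc2 (chromosome 6 from 41546730 to 41548352). Their first exons, 375 bases of coding sequence each, differ at 1 base in the GENCODE transcripts, and 20.3% of all 150-base windows of Trbc2 also occur in Trbc1. The coding stretch around that base, chr6:41538447-41538506 and chr6:41546959-41547018, is shown because reads that miss the base in capitals cannot tell the genes apart within this exon.
Trbc1: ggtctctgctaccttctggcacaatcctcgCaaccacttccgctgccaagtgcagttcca
Trbc2: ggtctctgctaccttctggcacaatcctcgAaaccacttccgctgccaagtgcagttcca
The split between the genes is therefore uncertain. Trbc1 stood at 1.38, 0.53 and 1.75 CPM in untreated and 0.849, 0.459 and 0.712 CPM in vorinostat tumours 1, 2 and 3 (log2 fold change -0.84 ± 0.71 SE, adjusted p 0.821 by edgeR). Trbc2 stood at 1.14, 1.31 and 0.441 CPM against 1.37, 0.873 and 1.35 CPM (log2 fold change 0.26 ± 0.65 SE, adjusted p 0.950 by edgeR). Untreated tumour 3 was highest for Trbc1 and lowest for Trbc2, and Trbc1 took 78.3% of the reads of both genes there (95% Clopper-Pearson interval 56.3% to 92.5%, 23 reads). In the other 5 tumours that share ran from 29.4% to 54.5%.

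The CD3 chains lie together on chromosome 9, Cd3g, Cd3d and Cd3e within 44969572 to 45009627, while Cd247, the zeta chain, lies on chromosome 1. Cd3e stood at 1.79, 1.62 and 1.62 CPM in untreated and 0.95, 1.65 and 0.628 CPM in vorinostat tumours 1, 2 and 3. The untreated values lay close together, and vorinostat tumour 2 overlapped them (log2 fold change -0.62 ± 0.57 SE, adjusted p 0.835 by edgeR). Cd3g stood at 2.37, 0.502 and 1.43 against 1.46, 0.505 and 1.26 CPM, with both tumours numbered 2 the lowest. Cd3d had between 6 and 11 reads in each tumour, too few for the test. Cd247 ran from 0.223 to 1.05 CPM, and its exons share 2136 bases with Pou2f1 on the opposite strand. The sources used here do not give whether the counting used strand. The 4 CD3 chains together reached 5.42, 2.90 and 4.95 CPM in untreated and 3.60, 3.35 and 3.14 CPM in vorinostat tumours 1, 2 and 3, so that untreated tumours 1 and 3 stood above all vorinostat tumours and untreated tumour 2 below them.

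Variable genes of the T cell receptor, which would show which receptors are present, held little beyond background. Reads in 128 such genes summed to 309 over all tumours, and 83 of the genes had a read. Chemoreceptor density alone would give between 53.8% and 84.1% of these reads, depending on the tumour. No repertoire can be read from them at this depth.

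Of the coreceptors, Cd4 marks helper and regulatory T cells and some dendritic cells, while Cd8a and Cd8b1, neighbours on chromosome 6, form the CD8 dimer of cytotoxic T cells. Cd4 stood at 2.06, 1.39 and 3.42 CPM in untreated and 1.86, 2.07 and 4.75 CPM in vorinostat tumours 1, 2 and 3 (log2 fold change 0.33 ± 0.49 SE, adjusted p 0.900 by edgeR). Tumours numbered 3 were the highest of each group. Cd8a had 32, 4 and 12 reads in untreated and 31, 23 and 19 in vorinostat tumours, or 1.22, 0.223 and 1.14 CPM against 1.23, 1.06 and 1.70 CPM (log2 fold change 0.62 ± 0.73 SE, adjusted p 0.872 by edgeR). Only untreated tumour 2 stood apart, below the other 5. Cd8b1 stood at 1.11, 0.446 and 0.285 against 0.752, 0.414 and 1.79 CPM (log2 fold change 0.60 ± 0.84 SE, adjusted p 0.897 by edgeR), which ran from 1.30 without untreated tumour 1 to -0.12 without vorinostat tumour 3. Of the reads of Cd8a and Cd4, Cd8a took 37.2%, 13.8% and 25% in the untreated tumours and 39.7%, 33.8% and 26.4% in the vorinostat tumours. The interval of untreated tumour 2 alone reached from 3.89% to 31.7%, and the groups overlapped.

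Among proteins of T cell adhesion, costimulation and signalling (Cd2, Cd5, Cd6, Cd28, Lck, Zap70 and Lat), all 7 were tested, 3 with a fold change above 0 and 4 below, from -0.27 for Lat to 0.43 for Zap70. Lck, the kinase that phosphorylates the CD3 chains, was the most abundant of them per base of transcript, at 2.33, 1.23 and 3.42 CPM in untreated and 1.82, 2.11 and 2.24 CPM in vorinostat tumours 1, 2 and 3 (log2 fold change -0.16 ± 0.47 SE, adjusted p 0.956 by edgeR). The vorinostat values fell within the untreated range. Cd2, an adhesion receptor, ran from 0.279 CPM in untreated tumour 2 to 2.85 CPM in untreated tumour 3, and Cd5, a brake on receptor signalling, from 0.167 to 1.24 CPM in the same tumours. Cd28, the main costimulatory receptor, had a log2 fold change of 0.03 (SE 0.68), and Cd6, a ligand-binding scavenger-type receptor of T cells, one of -0.17 (SE 0.60).

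The surface and signalling genes shared no single order, and Cd6 and Lat were lowest in vorinostat tumour 2, at 0.873 and 0.322 CPM. Zap70, the kinase that binds phosphorylated CD3 chains, was high in untreated tumour 2, where Lck and Lat were low. It stood at 1.07, 2.23 and 0.571 CPM in untreated and 0.911, 1.75 and 2.69 CPM in vorinostat tumours 1, 2 and 3, so that untreated tumour 2, the lowest for 22 of the 39 genes, was the second highest here. The length deposited for a gene differs between tumours, as an average over transcripts weighted by abundance does, and for Zap70 it was 2172 bases in untreated tumour 1 and between 1051 and 1199 bases in the other 5. In GENCODE M21 the full coding transcript of Zap70 has 2245 bases, and the shorter ones are a coding fragment of 454 bases and 2 intron-retaining transcripts of 808 and 1338 bases. The weighted length was thus under that of the full messenger RNA in every tumour, and least so in untreated tumour 1. The deposited lengths need not match GENCODE M21, as for Cd8b1 1418 bases were deposited where GENCODE M21 has 1483. The same measure ran from 797 bases in untreated tumour 2 to 2091 in untreated tumour 1 for Lck, and from 867 in vorinostat tumour 2 to 3108 in untreated tumour 2 for Cd4. For Cd8a, Cd3e, Il7r and Foxp3 the deposited length varied little, as for Cd8a from 3099 to 3130 bases.

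Cytokine receptor chains were among the better measured of these genes. Il7r, which receives the survival signal interleukin 7 in naive and memory T cells, stood at 4.69, 1.51 and 5.90 CPM in untreated and 2.65, 1.79 and 2.15 CPM in vorinostat tumours 1, 2 and 3, with 123, 27 and 62 against 67, 39 and 24 reads. Untreated tumours 1 and 3 lay above all vorinostat tumours and untreated tumour 2 below them all (log2 fold change -0.86 ± 0.46 SE, adjusted p 0.745 by edgeR). Leaving out untreated tumour 2 gave a log2 fold change of -1.27 (adjusted p 0.118 by edgeR), and leaving out untreated tumour 3 gave -0.54 (0.957). Il2rg, the chain shared by several interleukin receptors, stood at 3.40, 1.95 and 4.19 against 1.94, 1.47 and 3.14 CPM (log2 fold change -0.55 ± 0.43 SE, adjusted p 0.795 by edgeR). Il2rb, which forms the receptor for interleukins 2 and 15 with it, stood at 2.52, 1.56 and 4.09 against 3.13, 2.25 and 3.68 CPM (log2 fold change 0.16 ± 0.41 SE, adjusted p 0.950 by edgeR). For both genes the group ranges overlapped.

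Foxp3 (ENSMUSG00000039521, chromosome X from 7573644 to 7595245) is the gene that defines regulatory T cells. It had 85, 15 and 15 reads in untreated and 20, 11 and 10 reads in vorinostat tumours 1, 2 and 3, or 3.24, 0.836 and 1.43 CPM against 0.792, 0.505 and 0.897 CPM. Untreated tumour 1 stood far above the rest, its counting interval of 2.59 to 4.01 CPM clear of every other tumour's, while untreated tumour 2 lay among the vorinostat tumours. For vorinostat minus untreated edgeR gave -1.35 ± 0.67 SE on the log2 scale (unadjusted p 0.0691, adjusted p 0.743), falling to -0.67 with untreated tumour 1 left out (adjusted p 1 by edgeR). Against the CD3 chains the same tumour stood out: Foxp3 took 37.4% of the reads of Foxp3 and the CD3 chains there (95% interval 31.1% to 44.1%). In untreated tumours 2 and 3 it took 22.4% each, and in vorinostat tumours 1, 2 and 3 it took 18.0%, 13.1% and 22.2%. The lowest untreated and the highest vorinostat share differ by far less than their intervals. At the chemoreceptor density background would make up 2.55%, 10.3% and 11.3% of Foxp3 reads in untreated and 16.9%, 25.5% and 51.9% in vorinostat tumours 1, 2 and 3. For the CD3 chains it would make up 22.1% in vorinostat tumour 3 and at most 5.29% in the others. With background subtracted the log2 fold change of Foxp3 was -1.77, and it was not called. The shares were not recomputed without background. Exons of Foxp3 also share 359 bases with Ccdc22 and 266 with Ppp1r3f on the opposite strand and 266 with Flicr on the same strand, so reads of these genes could have been counted for one another.

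The other genes linked to regulatory and activated T cells did not follow Foxp3 closely. Ctla4, the inhibitory receptor that competes with CD28, stood at 2.71, 0.669 and 1.81 CPM in untreated and 2.14, 0.965 and 1.70 CPM in vorinostat tumours 1, 2 and 3 (log2 fold change -0.12 ± 0.60 SE, adjusted p 0.977 by edgeR). Il2ra (CD25), the high-affinity chain of the interleukin 2 receptor, stood at 0.877, 0.279 and 1.71 against 0.554, 0.597 and 0.987 CPM. Icos, a costimulatory receptor next to Ctla4 and Cd28 on chromosome 1, stood at 1.18, 0.279 and 1.14 against 1.11, 0.827 and 1.97 CPM. In each of these genes untreated tumour 2 was the lowest of all 6, and the groups overlapped.

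Tnfrsf9 (4-1BB), a receptor of activated T and NK cells that other cells can also carry, was the most abundant of the 39 genes per base of transcript, at a mean of 3.95 CPM per kilobase. Its levels stayed in a narrow band, at 4.58, 3.68 and 5.52 CPM in untreated and 4.32, 5.10 and 3.59 CPM in vorinostat tumours 1, 2 and 3 (log2 fold change -0.06 ± 0.26 SE, adjusted p 0.971 by edgeR). Tnfrsf18 (GITR) was erratic in both groups, with 32, 6 and 1 reads in untreated and 17, 1 and 13 in vorinostat tumours, a log2 fold change of 0.06 and an SE of 1.12.

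**Figure D3:**
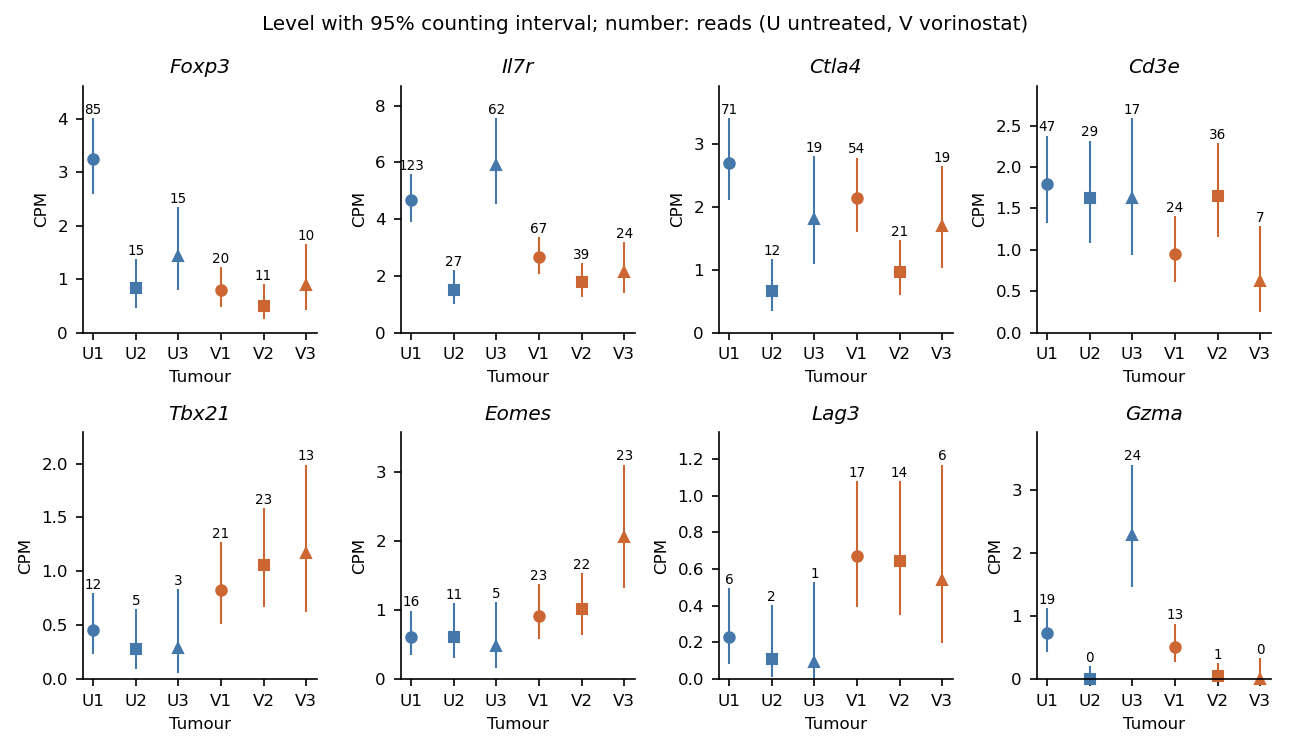
CPM of 8 of the genes in each tumour (U untreated, V vorinostat), with exact 95% Poisson intervals and the number of reads above each point. Foxp3 is high in untreated tumour 1 alone, Gzma is at 0 in untreated tumour 2 and vorinostat tumour 3, and the Tbx21, Eomes and Lag3 points of the vorinostat tumours lie above the untreated ones with intervals that overlap in part.

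Of the 4 checkpoint receptors, which dampen T cells in chronic stimulation, Pdcd1 (PD-1) and Havcr2 (TIM-3) could be tested. Pdcd1 stood at 0.801, 0.446 and 1.43 CPM in untreated and 0.99, 0.505 and 0.897 CPM in vorinostat tumours 1, 2 and 3 (log2 fold change -0.14 ± 0.74 SE, adjusted p 0.977 by edgeR). Havcr2, which macrophages and dendritic cells also express, stood at 1.45, 0.502 and 4.0 against 1.43, 1.56 and 1.17 CPM (log2 fold change -0.47 ± 0.69 SE, adjusted p 0.898 by edgeR). The fold change turned to 0.47 on the log2 scale without untreated tumour 3. Its high value there came with the highest sum of 12 macrophage and monocyte genes, 346 CPM, with at most 232 CPM in the other 5. The part of macrophages in Havcr2 was not tested.

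Lag3 and Tigit were higher in every vorinostat tumour than in every untreated one, at very low counts. Lag3, which binds MHC class II and lies beside Cd4 on chromosome 6, had 6, 2 and 1 reads in untreated and 17, 14 and 6 in vorinostat tumours 1, 2 and 3, or 0.229, 0.112 and 0.0951 CPM against 0.673, 0.643 and 0.538 CPM. Tigit, a receptor that competes with CD226 for its ligands, had 5, 3 and 1 reads against 5, 6 and 5, and its closest tumours of the 2 groups stood at 0.191 and 0.198 CPM. Both fell short of the count filter. With no filter edgeR gave Lag3 1.91 ± 1.18 SE on the log2 scale (adjusted p 0.754) and Tigit 0.82 ± 1.43 SE (adjusted p 0.879). All 6 untested members (Cd3d, Lag3, Tigit, Prf1, Klrb1c and Ncr1) had between 10 and 60 reads, and these were 2 of them. Among all 8272 genes outside the filter with as many reads, 14.4% were higher in every vorinostat tumour and 0.919% were lower. In untreated tumour 3 the background would account for 91.4% of the Lag3 reads, and in vorinostat tumours 1, 2 and 3 for 10.7%, 10.9% and 48.5%.

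Of the granule proteins of killer cells the 3 tested (Gzma, Gzmb and Nkg7) had fold changes below 0, none called, and Prf1 had too few reads for the test. Gzmb, the granzyme that triggers apoptosis through caspases, stood at 1.26, 0.502 and 3.62 CPM in untreated and 1.39, 1.06 and 1.44 CPM in vorinostat tumours 1, 2 and 3 (log2 fold change -0.44 ± 0.70 SE, adjusted p 0.907 by edgeR), and its fold change turned to 0.50 on the log2 scale without untreated tumour 3. Gzma, a granzyme found mainly in NK and cytotoxic T cells, had 19, 0 and 24 reads in untreated and 13, 1 and 0 reads in vorinostat tumours. It thus lay at or under the limit of 3 reads in 3 of the 6 tumours, with members of both groups among them, and its log2 fold change of -2.19 had an SE of 1.42 (adjusted p 0.766 by edgeR). With 1 tumour left out, where it could still be tested, the log2 fold change of Gzma ran from -4.79 (without vorinostat tumour 1, adjusted p 0.795 by edgeR) to -1.74 (without vorinostat tumour 3, adjusted p 0.997), and it was -2.80 without untreated tumour 2 (adjusted p 0.272). Once the tumours numbered 3 of both groups were left out it was -0.38 (adjusted p 1). Prf1, the pore protein perforin, was not tested, with 5, 2 and 7 reads in untreated and 10, 7 and 13 reads in vorinostat tumours. Nkg7, a granule membrane protein, ran from 0.0951 CPM in untreated tumour 3 to 0.877 CPM in untreated tumour 1 (log2 fold change -0.24, SE 0.94).

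Defining markers of NK cells were at or near the detection limit. Ncr1 (NKp46), the receptor most specific to NK cells, had 7, 0 and 4 reads in untreated and 0, 2 and 1 reads in vorinostat tumours 1, 2 and 3, and was at or under the chemoreceptor background in 3 of the 6. Klrb1c (NK1.1) had 1, 0 and 5 against 10, 2 and 4 reads, at or under the background in 2. At this depth no difference in NK cells could be detected from these genes. Klrk1 (NKG2D), which CD8 T cells carry as well, was the member of this group that could be tested, at 1.14, 0.446 and 1.43 against 1.11, 0.414 and 0.448 CPM (log2 fold change -0.57 ± 0.77 SE, adjusted p 0.891 by edgeR). Background would make up 3.3%, 17.2% and 5.26% of its reads in untreated and 7.15%, 26.9% and 92.4% in vorinostat tumours 1, 2 and 3. In vorinostat tumour 3 it had 5 reads. Of the values of TCR and CD3 chain genes 0 of 42 lay at or under background, against 5 of 18 for the NK receptors. Those 5 were of Ncr1 and Klrb1c, and Klrk1 stayed above background in all 6 tumours. Background would still make up 29.8% of Cd3e reads in vorinostat tumour 3. The T cell receptor genes were thus better measured than Ncr1 and Klrb1c.

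Tbx21 and Eomes, the transcription factors (T-bet and eomesodermin) that direct the effector programme of CD8 T cells and NK cells, were the tested genes whose group ranges did not overlap. Tbx21 (chromosome 11 from 97098071 to 97115331) had 12, 5 and 3 reads in untreated and 21, 23 and 13 reads in vorinostat tumours 1, 2 and 3. This gives 0.458, 0.279 and 0.285 CPM against 0.831, 1.06 and 1.17 CPM, or 1.53 ± 0.75 SE on the log2 scale (unadjusted p 0.0654, adjusted p 0.743 by edgeR). Eomes (chromosome 9 from 118478212 to 118486132) had 16, 11 and 5 against 23, 22 and 23 reads, or 0.61, 0.613 and 0.476 against 0.911, 1.01 and 2.06 CPM (log2 fold change 1.19 ± 0.69 SE, adjusted p 0.745 by edgeR). Leaving out vorinostat tumour 3 brought Eomes to a log2 fold change of 0.74 (adjusted p 0.997 by edgeR), and leaving out both tumours numbered 3 to 0.66 (adjusted p 1). With the chemoreceptor background subtracted the log2 fold change was 1.26 for Eomes and 1.54 for Tbx21. At the chemoreceptor density background would make up at most 32.5% of Eomes reads and at most 37.9% of Tbx21 reads, both in untreated tumour 3. Neither gene passed the test under any of the 16 alternatives, as far as each could be tested in them.

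The separation of these 2 genes has to be read against genes of like depth. Among 2179 tested genes with 60 to 120 reads, 14.6% were higher in every vorinostat tumour and 0.918% were lower. Of the 39 genes, 12 were tested with as many reads, and Tbx21 and Eomes are the 2 of them (16.7%) that separated. Over all depths 2 of 33 tested genes were higher in every vorinostat tumour (6.06%), against 6.52% of all genes tested, and 0 were lower, against 5.52%. A share near the background is no result about these genes.

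**Figure D4:**
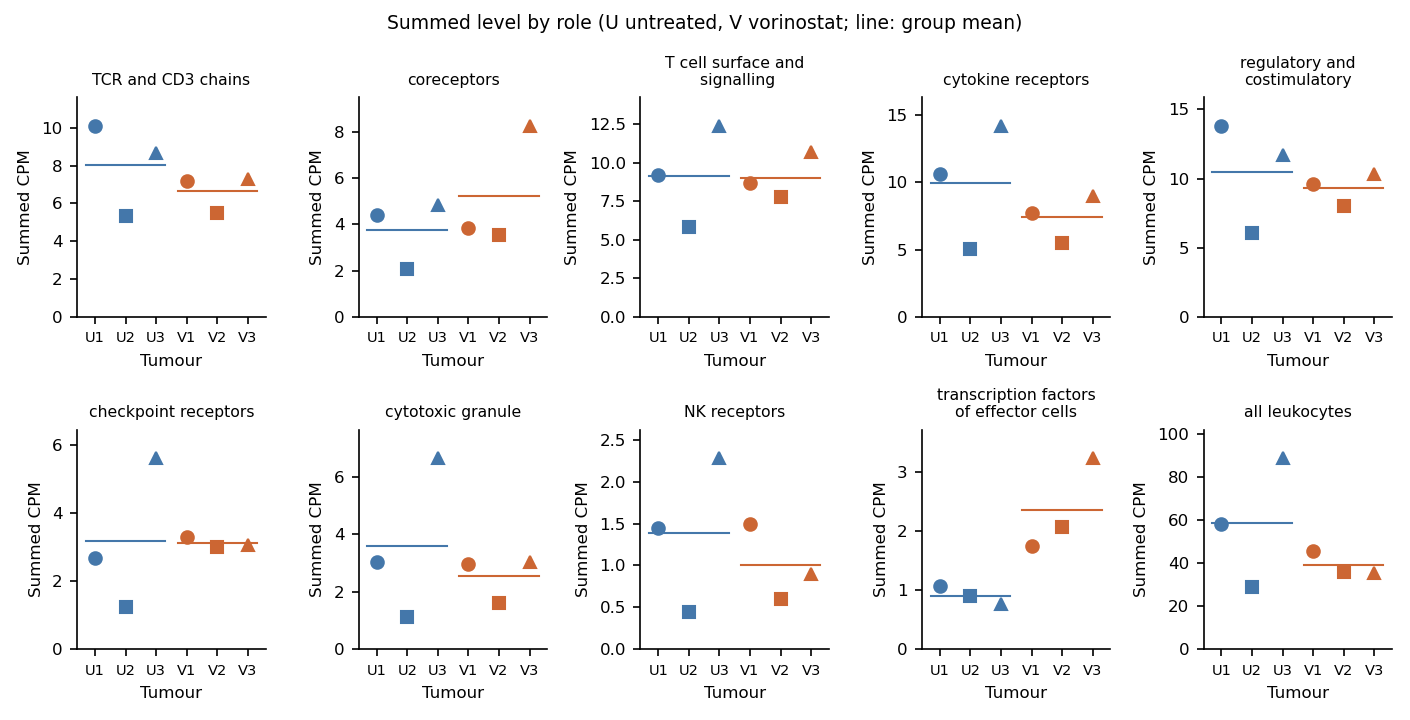
Summed CPM of each role, and of 4 pan-leukocyte genes (Ptprc, Laptm5, Coro1a and Cd53), in each tumour, with lines at the group means. Groups overlap in every panel except that of the transcription factors, where the untreated tumours sit between 0.761 and 1.07 CPM and the vorinostat tumours between 1.74 and 3.23 CPM.

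By role, the highest and the lowest sum both belonged to untreated tumours in every role but the coreceptors, where vorinostat tumour 3 was highest at 8.25 CPM, and the transcription factors. TCR and CD3 chains summed to 10.1, 5.35 and 8.66 CPM in untreated and 7.21, 5.47 and 7.27 CPM in vorinostat tumours 1, 2 and 3, and regulatory and costimulatory genes to 13.8, 6.08 and 11.7 against 9.58, 8.04 and 10.3 CPM. In checkpoint receptors the vorinostat tumours were alike, at 3.29, 2.99 and 3.05 CPM, and lay between untreated tumour 2 at 1.23 and untreated tumour 3 at 5.61 CPM. Cytotoxic granule genes gave 3.05, 1.12 and 6.66 against 2.97, 1.61 and 3.05 CPM. Untreated tumour 2 had the lowest sum of all 6 in each role except the transcription factors.

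The same sums can be set against CD45, whose own level differed between tumours. For every 100 CPM of Ptprc the CD3 chains stood at 29.8, 43.3 and 17.4 CPM in untreated and 29.5, 42.2 and 29.9 CPM in vorinostat tumours 1, 2 and 3, with overlap. On that scale Tbx21 and Eomes together stood at 5.88, 13.3 and 2.68 against 14.3, 26.0 and 30.8. Coreceptors, at 24.2, 30.8 and 17.1 against 31.5, 44.5 and 78.6, did not overlap there either. Nor did checkpoint receptors, at 14.7, 18.3 and 19.8 against 26.9, 37.6 and 29.1, while the other roles overlapped. Ptprc itself had a mean of 17.7 CPM in untreated and 10.2 CPM in vorinostat tumours, and a lower Ptprc level raises every ratio to it. Macrophage and monocyte genes did not overlap on that scale either, at 950, 1510 and 1220 against 1820, 2910 and 1560. The share of all genes that separate on it was not computed, so these separations are no result about the roles. Of the reads of Tbx21, Eomes and the CD3 chains, these transcription factors took 16.5%, 23.5% and 13.3% in untreated and 32.6%, 38.1% and 50.7% in vorinostat tumours. These ratios were chosen after the levels of Tbx21 and Eomes had been seen and are no separate support for their difference.

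**Figure D5:**
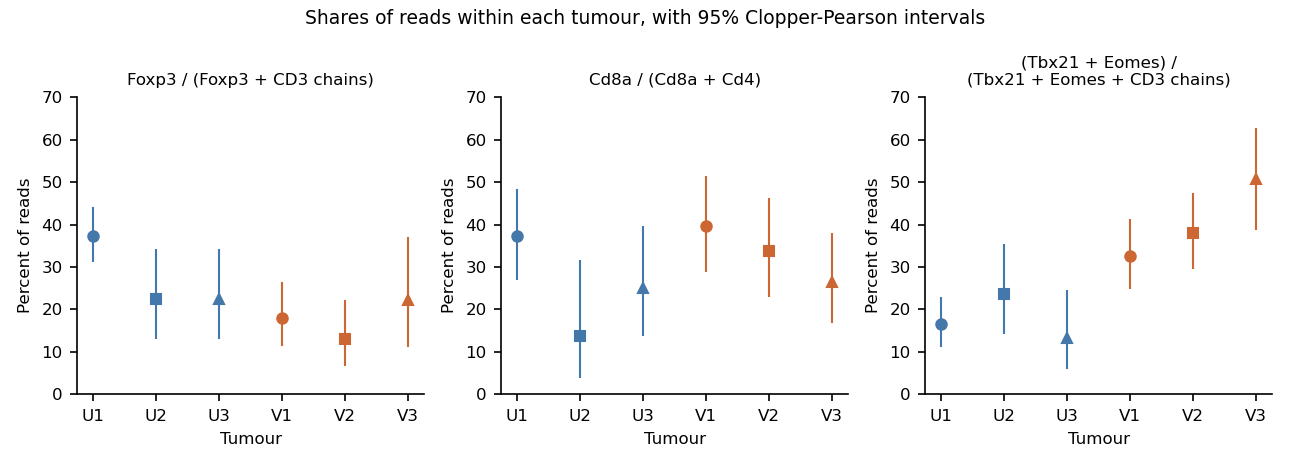
Percent of reads within each tumour (U untreated, V vorinostat) taken by Foxp3 against the CD3 chains, by Cd8a against Cd4, and by Tbx21 and Eomes against the CD3 chains, with 95% Clopper-Pearson intervals. Foxp3 is highest in untreated tumour 1 at 37.4%, the Cd8a shares overlap, and the third panel separates the groups at 23.5% and 32.6%.

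Other genes of T and NK cells likewise gave no call. Of 55 such genes, listed by function, 27 were tested, 16 with a fold change above 0 and 11 below (below 0 for 45.9% of all genes). Their median log2 fold change was 0.24, against 0.03 over all genes tested, and edgeR called 0 of them. At an unadjusted p under 0.05 there was 1 of the 27, against 6.27% of all genes tested. It was Ikzf4, which encodes the regulatory T cell factor Eos. Of the 55 genes, 1 (Trgc1) had no read in any tumour. By smallest p the genes above 0 were Ikzf4, Sh2d2a (the T cell adaptor TSAd) and Ubash3a, a phosphatase that limits receptor signalling. Ikzf4 stood at 0.763, 1.39 and 0.285 CPM in untreated and 1.5, 1.52 and 5.56 CPM in vorinostat tumours 1, 2 and 3 (log2 fold change 1.74 ± 0.71 SE, adjusted p 0.743 by edgeR), and had a log2 fold change of 0.85 once vorinostat tumour 3 was left out. Sh2d2a stood at 2.14, 2.06 and 1.71 against 2.3, 2.16 and 8.34 CPM, and Ubash3a at 0.496, 0.613 and 0.666 against 1.27, 0.643 and 3.05 CPM. In all 3 the value of vorinostat tumour 3 stood above every other.

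Below 0 the smallest p among the genes reported belonged to Cd69, an early activation marker, and Ikzf2, which encodes the factor Helios. Cd69 stood at 1.45, 1.45 and 2.95 CPM in untreated and 0.831, 1.01 and 0.987 CPM in vorinostat tumours 1, 2 and 3, with no overlap (log2 fold change -1.03 ± 0.57 SE, adjusted p 0.745 by edgeR). Of the 27 genes tested, Cd69 was the 1 that was lower in every vorinostat tumour, and Ikzf4 and Sh2d2a were the 2 that were higher. Over all genes tested, 5.52% were lower in every vorinostat tumour and 6.52% were higher. Ikzf2 had a log2 fold change of -0.43 (SE 0.29), with overlapping ranges.

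Markers of other cells differed between tumours as well. The 4 pan-leukocyte genes summed to 58.3, 28.8 and 88.9 CPM in untreated and 45.6, 36.1 and 35.5 CPM in vorinostat tumours 1, 2 and 3. Macrophage and monocyte genes, with Adgre1 and Csf1r first among them, peaked in untreated tumour 3, where Csf1r stood at 21.4 CPM. Ranges of the summed levels in untreated and vorinostat tumours were 5.13 to 10.8 and 7.35 to 12.0 CPM for 6 dendritic cell genes. Of these, Flt3, Zbtb46 and Xcr1 were highest in vorinostat tumour 3, at 2.06, 5.65 and 0.636 CPM. Itgax and Clec9a were highest in untreated tumour 3, at 4.85 and 1.24 CPM, and Siglech in untreated tumour 1, at 1.22 CPM. B cell genes did not share a highest tumour. Ms4a1 (CD20) and Ighm were highest in untreated tumour 3, at 2.19 and 6.75 CPM. Cd79a, Cd79b and Pax5 were highest in vorinostat tumour 3, at 1.17, 1.35 and 4.22 CPM. For 5 neutrophil genes, led by S100a8 and S100a9, the ranges were 1.78 to 18.3 and 1.47 to 5.65 CPM, with Ly6g at 0 in 5 tumours. Mast cell genes other than Kit, which melanoma cells also express, had few reads, with Fcer1a at 0 in all 6. The highest of them was Mcpt4 in untreated tumour 3, with 9 reads or 0.856 CPM. Endothelial genes (Pecam1, Cdh5, Kdr and Tie1) summed to 2.97 to 11.1 and 3.77 to 10.4 CPM, and fibroblast genes (Col1a1, Col1a2, Dcn and Pdgfra) to 10.1 to 17.3 and 5.90 to 13.0 CPM. The part of these cells in the values of the T cell genes was not tested.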

How the data were processed

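Total RNA libraries from 6 tumours were made with a stranded kit and read as paired 150-base ends, per the labels' protocols. Per the submitters' processing notes FastQC, Trim Galore and Salmon were used with GRCm38; their versions, annotation and strand setting were not given in the sources used here. Estimated counts deposited by the authors were rounded to whole reads. TPM, also deposited by the authors, served in alternatives only. Gene and effective lengths are those deposited. Symbols came from GENCODE M21 (44118 of 44679 identifiers matched; Trgc1 and Trgc2 through RefSeq synonyms).

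The main test was edgeR 4.0.16 (R 4.3.3): TMM, filterByExpr by group, quasi-likelihood, 2-sided p, Benjamini-Hochberg over 14776 genes, threshold 0.05, no covariate. SEs were derived from fold change and F. DESeq2 1.42.0 and limma 3.58.1 served as alternatives, as did other scalings and filters, subtraction of chemoreceptor background and leaving out each tumour. Groups follow the treatment label; replicate numbers are accession order and pair nothing. Each title holds a G number of unexplained meaning: 1 for untreated tumours 1 and 2, 2 for untreated tumour 3, 3 for vorinostat tumours 1 and 2, and 4 for vorinostat tumour 3. No G number occurs in both groups, so these numbers and the treatment cannot be told apart in a fit.

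The members and lists were chosen with earlier results of these data known. Every member was accounted for, with reads per tumour where it had 30 or more in all. Of the other T and NK genes the 3 with the smallest p in each direction are named, and of other cell types their summed level and first genes. Some values that this rule covers are not reported here. The read bands, the ratios between genes, the variable-gene sums and the comparison with both tumours numbered 3 left out were added after seeing the data. So were further genes of some lists of other cell types.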

Additional observations from a re-analysis of the deposited data

How the results depend on the processing

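Of the 16 alternatives none called any of the T and NK cell genes tested in it, and edgeR's 0 calls over all genes became 156 without a filter on low counts, 11 with DESeq2, 39 with limma on log2(TPM + 1) and 52 with the pseudocount 0.1. Leaving out 1 tumour at a time gave 0 to 121 calls over all genes, the 121 without untreated tumour 2, where the smallest adjusted p of the T and NK genes was 0.118 (Il7r). It gave a median log2 fold change of the T and NK genes of -0.36 to 0.12, against -0.12 with all tumours. On log2(TPM + 1) that median was 0.18 and with a pseudocount of 0.1 it was 0.44, so the excess of values below 0 turned into an excess above 0 on the TPM scales: 24 and 26 of 33 lay above 0. These scales moved the median of all genes to 0.26 and 0.51, and relative to it the T and NK genes lay lower on both. The cause was not tested. Tbx21 and Eomes stayed above 0 wherever they were tested, from 0.28 to 1.78 and from 0.25 to 1.40, and Foxp3 stayed below 0, from -1.77 to -0.14. Leaving out both tumours numbered 3 (which leaves 1 G number of the titles in each group) was chosen after seeing the data and gave a median of -0.03. At a median of 116 reads a gene over 6 libraries, counting error limits what can be seen here, as does the spread between tumours, which exceeded it. No paired analysis was possible because the replicate numbers are only accession order and the numbers in the titles, which the labels do not explain, are shared between the groups in 1 case (N 1).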
